A study of Drosophila melanogaster with 20 samples.

Results

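Prat2, ade3 and CG11089 encode enzymes of purine synthesis, and their expression in mated relative to virgin Drosophila melanogaster females is described here across heads at 0-2, 24, 48 and 72 h post-mating and dissected brains at 24 h. The genes were chosen because the study's lists of the 100 top-ranked genes name them. Prat2 and ade3 stand in the lists for 24, 48 and 72 h, and CG11089 stands in those for 24 and 48 h. They are 3 of the 390 genes that could be named on an array of 15744 probes, and each is measured by 1 probe, which held the same gene in all 5 experiments. Because the ratios at 24, 48 and 72 h chose the genes, those ratios are given as a description, without a p-value. Counts of enzymes called at these times are not evidence for a change. No list for 0-2 h or for brains holds any of the 3, and only there is a p-value given. Few probes pass the test there, so genes outside those lists were unlikely to pass.

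Purines are built step by step on a ribose phosphate, with nitrogen and carbon added from glutamine, glycine, aspartate, bicarbonate and formyl groups carried by tetrahydrofolate. Prat2 (FBgn0041194) is an amidophosphoribosyltransferase, the enzyme of the committed first step, and the fly genome holds a second gene for this activity, Prat. ade3 (FBgn0000053, now listed as Gart) is a single protein with several activities, which attaches glycine, transfers a formyl group and closes the first ring. CG11089 (FBgn0039241) is the fly counterpart of the enzyme that adds the last formyl group and closes the second ring to give inosine monophosphate, from which adenine and guanine nucleotides are made. In the female fly head these reactions are general housekeeping chemistry, and the fat body, which lines the head capsule, is a main site of intermediary metabolism.

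Each array compared RNA of mated females with RNA of age-matched virgins, in 5 experiments of 4 arrays, 20 arrays in all, with independent biological samples on every array. All females were wild-type Canton S, raised at 25°C and 5 days old when 10 of them were placed with 20 males, and the males carried w; P[UAS-dj-GFP], a transgene that labels sperm tails so that mated females can be picked out by fluorescence under CO2. Virgins for the 0-2 h collection were never with males but were anaesthetized in the same way. Head samples pooled about 100 heads, from which 20 µg of total RNA was labelled, while brain samples pooled 20 brains and their RNA was amplified before labelling, so heads and brains differ in both tissue and preparation. Whole heads hold brain, eye, muscle and fat body together, and in such bulk samples fewer cells of one type and less RNA per cell cannot be told apart.

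The values are the authors' log2 ratios of mated over virgin, so that -1 means 2-fold lower in mated females. An array held a value for between 1818 and 6466 probes, and 4 arrays per experiment limit the precision of every mean. The dye on RNA of mated females was Cy3 in replicates 1 and 2, and the dyes were swapped for replicates 3 and 4. The median ratio over all probes tested lay between -0.01 and 0.03 in each experiment. Ratios hold no levels, so neither the tissue labels nor the abundance of the 3 transcripts could be checked against marker levels.

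All 3 enzymes were lower in heads of mated females on every array that measured them from 24 to 72 h. Of 36 possible values 32 were present, and 32 of 32 were below 0. At 0-2 h and in brains 22 of 24 possible values were present and 8 were below 0. A probe was below 0 on every array with a value in 19.0% of probes tested at 24 h, 20.0% at 48 h and 14.5% at 72 h. By an adjusted p under 0.05 from limma, 3 of 3 enzymes were called lower at 48 h against 1.98% of all probes, 0 of 3 at 24 h against 0.0242% and 0 of 3 at 72 h against 0.0623%. Since these times chose the genes, the counts describe them and nothing is read from them. They also moved with the arrays used, as 0 of 3 were called at 48 h without replicate 1, 1 (Prat2) without replicate 3 and 2 (Prat2 and CG11089) without replicate 2, and 1 (ade3) was called at 72 h without replicate 2.

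**Figure D1:**
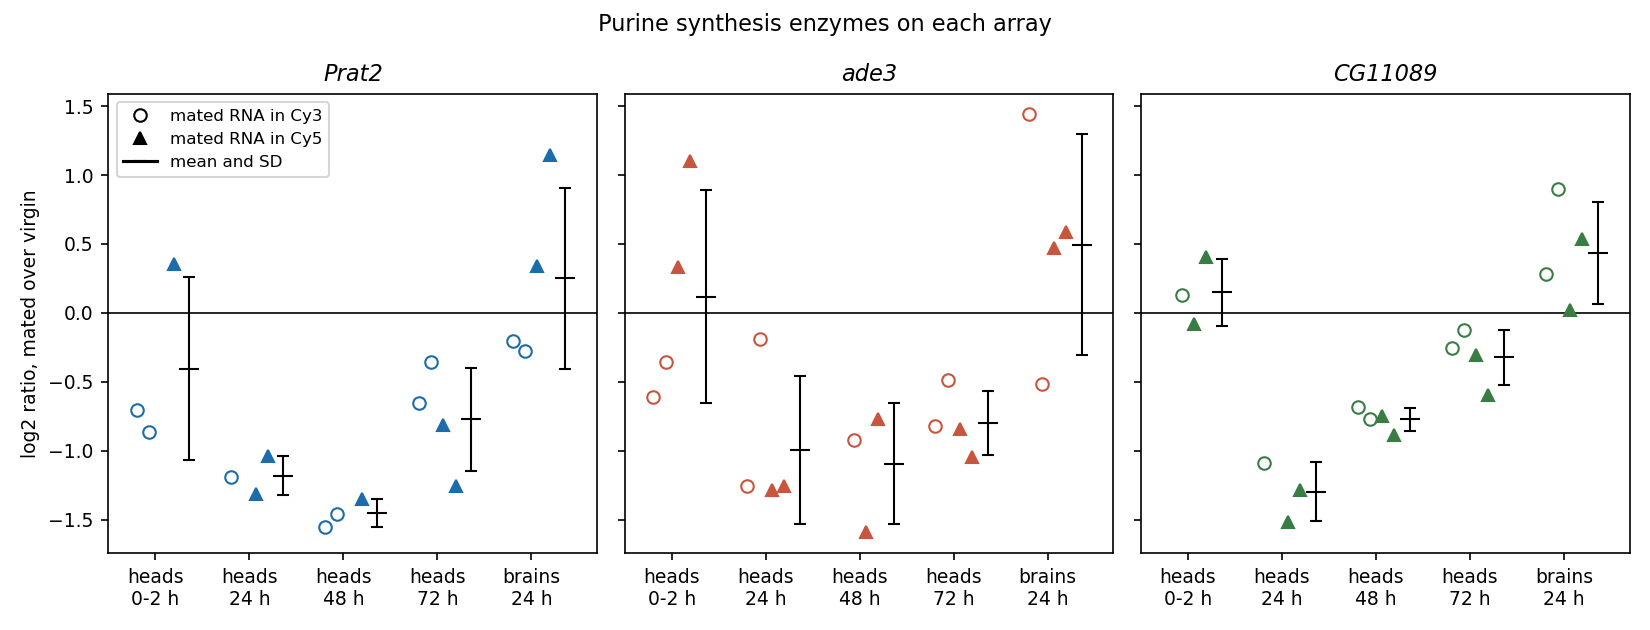
Log2 ratio of mated over virgin (vertical axis) for Prat2, ade3 and CG11089 on each array of the 5 experiments (horizontal axis), with open circles for mated RNA in Cy3, filled triangles for mated RNA in Cy5, and black bars for the mean and SD. All 32 values at 24, 48 and 72 h lie below 0, while values at 0-2 h and in brains lie on both sides of it for Prat2 and ade3.

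Prat2 was the most repressed of the enzymes at 48 h. On the 3 arrays with a value it read -1.55, -1.46 and -1.35, a mean of -1.45 ± 0.10 (SD, n = 3) or 2.74-fold lower in mated females. These readings lay close together, as only 6.78% of 2272 probes with at least 3 values had a smaller SD at 48 h. At 24 h Prat2 read -1.19, -1.32 and -1.04, a mean of -1.18 ± 0.14 (SD, n = 3) or 2.27-fold lower. At 72 h the 4 arrays read -0.65, -0.36, -0.81 and -1.26, a mean of -0.77 ± 0.38 (SD, n = 4) or 1.71-fold lower. The readings at 72 h were thus spread more widely, and replicate 4 alone overlapped the values of 24 h. At 0-2 h Prat2 read -0.71 and -0.86 on the arrays with mated RNA in Cy3 and 0.35 on the single Cy5 array with a value, a mean of -0.41 ± 0.66 (SD, n = 3). In brains it read -0.20, -0.28, 0.34 and 1.15, a mean of 0.25 ± 0.66 (SD, n = 4). In both of these experiments the sign followed the dye, with every Cy3 array below 0 and every Cy5 array above it.

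ade3 kept the steadiest mean over the 3 later head times. At 24 h it read -1.25, -0.19, -1.28 and -1.26, a mean of -0.996 ± 0.54 (SD, n = 4) or 1.99-fold lower. Replicate 2, the array with the fewest values at this time (1879 probes), stood apart from the other arrays, which lay within a few hundredths of each other, and without it the mean was -1.27. At 48 h ade3 read -0.92, -1.59 and -0.77, a mean of -1.09 ± 0.44 (SD, n = 3) or 2.13-fold lower. At 72 h it read -0.82, -0.49, -0.84 and -1.05, a mean of -0.80 ± 0.23 (SD, n = 4) or 1.74-fold lower. The ranges of the 3 times overlapped throughout. At 0-2 h ade3 read -0.61, -0.36, 0.34 and 1.10, a mean of 0.12 ± 0.77 (SD, n = 4). In brains it read 1.44, -0.52, 0.47 and 0.59, a mean of 0.49 ± 0.80 (SD, n = 4). Both spreads were wide for the platform, larger than those of 94.4% of 2556 probes at 0-2 h and 93.1% of 5961 probes in brains.

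CG11089 had its lowest ratio at 24 h. It read -1.09, -1.52 and -1.29 there, a mean of -1.30 ± 0.21 (SD, n = 3) or 2.46-fold lower, the lowest mean of the 3 enzymes at that time. On the 3 arrays that measured all enzymes CG11089 was the lowest on 2 and ade3 on 1. Replicate 2, where ade3 read -0.19, has no value for CG11089 or Prat2. At 48 h it read -0.68, -0.77, -0.75 and -0.89, a mean of -0.77 ± 0.09 (SD, n = 4) or 1.71-fold lower, with a smaller SD than all but 4.31% of 2272 probes. At 72 h it read -0.26, -0.13, -0.30 and -0.60, a mean of -0.32 ± 0.20 (SD, n = 4) or 1.25-fold lower, and it is not in the study's list for 72 h, which holds Prat2 (-0.77) and ade3 (-0.80). No value of one of these 3 times reached into the range of another. At 0-2 h CG11089 read 0.13, -0.08 and 0.40, a mean of 0.15 ± 0.24 (SD, n = 3). In brains it read 0.28, 0.90, 0.02 and 0.54, a mean of 0.43 ± 0.37 (SD, n = 4), above 0 on all 4 arrays, as was the case for 8.96% of the 6498 probes tested there.

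The enzymes of the first and last steps therefore stood in different order at different times. Prat2 was lowest at 48 h, then 24 h, 72 h, 0-2 h and brains. Its values at 48 and 24 h did not overlap, as for 6.24% of 1026 probes with at least 3 values at each time, and every later pair of neighbours in that order did. ade3 followed the same order, and all of its neighbouring experiments overlapped. CG11089 was lowest at 24 h, then 48 h, 72 h, 0-2 h and brains, and of its neighbours 0-2 h and brains alone overlapped (values did not overlap for 8.75% of 1588 probes between 48 and 72 h and for 6.31% of 1647 between 72 and 0-2 h). From 24 to 48 h CG11089 moved up by 0.52 (SE 0.21, limma fit of both experiments), while the change was -0.27 (SE 0.23) for Prat2 and -0.10 (SE 0.33) for ade3, which turned to 0.09 without replicate 2 and 0.06 without replicate 3. From 48 to 72 h all 3 moved toward 0, by 0.68 (SE 0.22) for Prat2, 0.29 (SE 0.23) for ade3 and 0.45 (SE 0.15) for CG11089, and for ade3 by 0.06 to 0.54 with 1 replicate left out. On the 4 arrays at 72 h, all of which measured the 3 enzymes, CG11089 was the least repressed on 4 of 4, and on the 2 such arrays at 48 h Prat2 was the lowest on both.

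**Figure D2:**
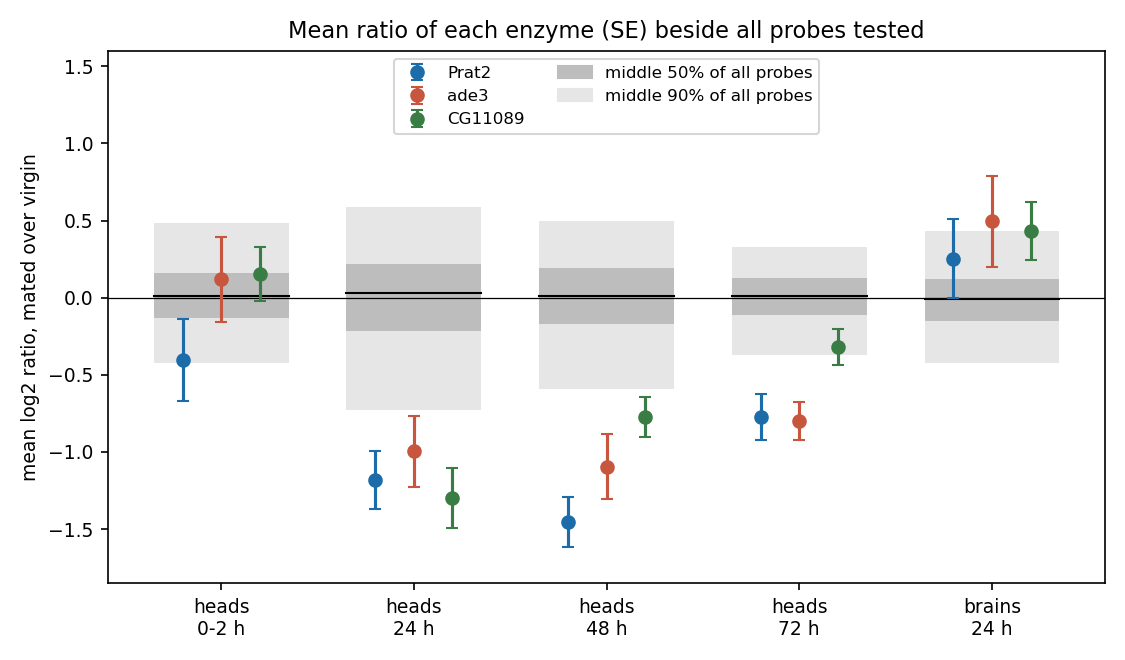
Mean log2 ratio of mated over virgin (vertical axis) of the 3 enzymes in each experiment (horizontal axis), with error bars for the SE from limma; dark and light grey bars span the 25th to 75th and the 5th to 95th percentile of the means of all probes tested, and a black line marks their median. At 24 and 48 h all 3 enzymes lie below the light bar, and at 72 h CG11089 (-0.32) lies inside it.

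Relative to all probes, Prat2 had rank 55 from the lowest of 4140 mean ratios at 24 h, rank 17 of 2981 at 48 h and rank 43 of 6416 at 72 h. ade3 had ranks 102, 33 and 39 at these times. CG11089 had ranks 39, 86 and 432. At 0-2 h the ranks from the lowest were 208 of 3871 for Prat2, 2690 for ade3 and 2848 for CG11089, so the first enzyme stood at the low end of the distribution and the other two above its middle. In brains all 3 stood in the upper part, at ranks 772, 235 and 321 from the highest of 6498 for Prat2, ade3 and CG11089.

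At 0-2 h, which addresses the earliest response to mating, no enzyme passed the test. The adjusted p from limma was 0.877 for Prat2, 0.997 for ade3 and 0.949 for CG11089 (unadjusted 0.172, 0.679 and 0.421). Of all probes 0.0517% were called lower and 0.0258% higher. From 0-2 to 24 h the ratio changed by -0.78 (SE 0.34) for Prat2, -1.11 (SE 0.40) for ade3 and -1.45 (SE 0.25) for CG11089 in a limma fit of both experiments. The 2 experiments share no sample, but 24 h was used to choose the genes, so no p is given. Without replicate 4 the changes of Prat2 and ade3 were -0.47 and -0.70, and without replicate 2 that of ade3 was -1.54 against -1.46 for CG11089, so the order of the enzymes depended on the arrays.

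In brains at 24 h, which separates brain from the rest of the head at one time, no enzyme passed the test either. All 3 means were above 0, at 1.19-fold for Prat2, 1.41-fold for ade3 and 1.35-fold for CG11089, with adjusted p = 1.00, 0.959 and 0.874 from limma (unadjusted 0.355, 0.135 and 0.0533). No probe of 6498 was called at this threshold in brains (0% in each direction), and 152 lower (2.34%) and 216 higher (3.32%) probes had an unadjusted p under 0.05. With no probe called, the failure of the enzymes to pass says little about them. The brain ratio exceeded the head ratio of the same time by 1.43 (SE 0.35) for Prat2, 1.49 (SE 0.39) for ade3 and 1.73 (SE 0.28) for CG11089. For each enzyme the lowest brain value lay above the mean of the head values, and for Prat2 and CG11089 the ranges of heads and brains did not overlap, brains being higher, as for 8.09% of 1446 probes with at least 3 values in each (12.7% in either direction). The 24 h heads chose the genes, so these differences carry no p, and tissue and amplification of RNA cannot be told apart in them.

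Dye orientation moved with the values of Prat2 and ade3 at 0-2 h. Mean ratios were -0.78 in Cy3 (n = 2) against 0.35 in Cy5 (n = 1) for Prat2 and -0.48 (n = 2) against 0.72 (n = 2) for ade3. These are signed gaps (Cy5 minus Cy3) of 1.14 and 1.20, with 96.0% and 97.0% of 2556 probes below them. Gaps of like size in the other direction also occurred, as the 5th and 95th percentiles of all probes were -1.13 and 1.08. CG11089 had a gap of 0.03. With a term for dye orientation the mean of Prat2 at 0-2 h was -0.22 (adjusted p = 0.463 from limma), and ade3 (0.752) and CG11089 (0.711) did not pass either. In brains the gap was 0.98 for Prat2, 0.07 for ade3 and -0.31 for CG11089, with adjusted p = 0.426, 0.421 and 0.208 from limma under the dye term. The signed gap of Prat2 had 93.6% of 5961 probes below it, and the 5th and 95th percentiles were -1.24 and 1.05. From 24 to 72 h the gaps lay between -0.55 (ade3 at 24 h) and 0.16 (Prat2 at 48 h), those of CG11089 at -0.31, -0.09 and -0.26, and the mean of each orientation was below 0 for every enzyme at each of these times. Prat2 at 72 h was lower in Cy5 (-1.04, n = 2) than in Cy3 (-0.51, n = 2), a gap of -0.53 that is opposite in sign to that at 0-2 h and had 4.82% of 4922 probes below it.

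The 3 enzymes varied together between experiments more than within them. Over all arrays with both values Pearson's r was 0.79 for Prat2 and ade3 (16 arrays), 0.77 for Prat2 and CG11089 (16 arrays) and 0.73 for ade3 and CG11089 (17 arrays). After each experiment's mean was removed r was 0.51, 0.21 and -0.18. The arrays share experiments and dye orientation, so these coefficients are descriptions. Prat2 and ade3 thus kept part of their likeness within experiments, and both kept little or none with CG11089. In the ranking of all probes by likeness to Prat2 (at least 10 shared arrays, 2787 probes), ade3 had rank 50 and CG11089 rank 71. These ranks use the same values and were set in part by the choice of genes too.

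**Figure D3:**
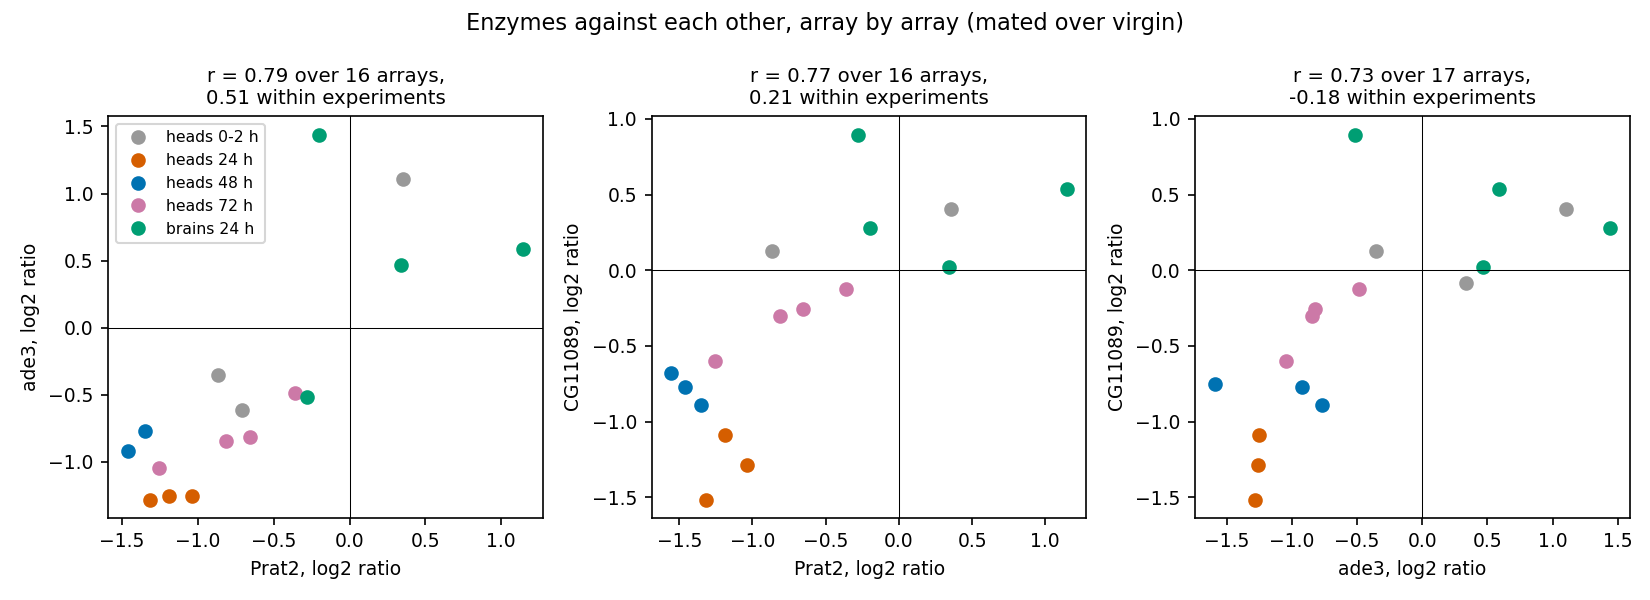
Log2 ratios of mated over virgin of each pair of enzymes (both axes), 1 point per array, coloured by experiment, with Pearson's r over all arrays and after removal of each experiment's mean above each panel. Arrays at 24, 48 and 72 h lie below 0 on both axes of each panel. The brain and 0-2 h arrays spread more widely, and for Prat2 and ade3 some of them lie near those of 72 h.

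The named genes most like the enzymes over the arrays differed between the first and last steps. For Prat2 they were CG9953 (r = 0.92, 16 arrays), CG8539 (0.92, 15 arrays) and CG5288, a galactokinase now listed as Galk (0.91, 17 arrays), which also had ranks 1, 2 and 3 among all 2787 probes. Their r within experiments was 0.88, 0.92 and 0.83. For ade3 they were rost (0.93, 15 arrays), CG11919, now listed as Pex6 (0.91, 15 arrays), and again CG8539 (0.86, 16 arrays), with r = 0.86, 0.79 and 0.82 within experiments. CG8539 thus stood among the first 3 for both, and its mean was -1.33 ± 0.11 (SD, n = 3) at 24 h, followed by -1.26 ± 0.26 (SD, n = 4) at 48 h. For CG11089 they were CG3011 (0.93, 18 arrays), aay (0.90, 18 arrays) and CG15093 (0.88, 13 arrays), of which the first pair belongs to the supply of glycine and folate carbon described next. Within experiments their r was 0.35, 0.34 and 0.17, so the likeness of CG11089 to its neighbours lay mainly in the means of the experiments. At 0-2 h Cy5 minus Cy3 was 0.75, 1.01 and 0.42 for CG9953, CG8539 and CG5288, and 1.00 and 1.03 for rost and CG11919. It was 1.14 for Prat2, 1.20 for ade3, 0.03 for CG11089, 0.55 for CG3011 and -0.08 for aay. The part of dye orientation in these coefficients was not tested. For the 3 enzymes 201, 208 and 197 named genes had enough arrays to be compared, all of them from the study's lists of top genes. When 14 shared arrays were required Aldh took the place of CG15093.

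Other steps of the pathway could be followed only in part, since a gene has a name here only where a list of the study holds it. Of 9 further symbols of purine synthesis and interconversion, which include the other amidophosphoribosyltransferase gene Prat, 1 was named, bur, the GMP synthetase of the branch that leads from inosine monophosphate to guanine nucleotides. It had 0.90 and 0.60 on the 2 arrays with a value at 0-2 h, both in Cy3, and stands in the study's list for that time. At 24, 48 and 72 h bur had means of -0.07 ± 0.53 (SD, n = 3), 0.03 ± 0.33 (SD, n = 4) and 0.10 ± 0.12 (SD, n = 4), and in brains -0.08 ± 0.28 (SD, n = 4). So the one branch enzyme that could be read did not share the low ratios of the 3 enzymes upstream of it from 24 to 72 h. None of 7 symbols of purine salvage and breakdown was named.

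Genes around the glycine and formyl groups used by ade3 and CG11089 were lower at the same times. Of 11 symbols 7 were named, and all of those read at 24 h (6 of 6), 48 h (5 of 5) and 72 h (6 of 6) had means below 0, against 46.8, 47.8 and 46.9% of all probes. The list medians were -1.18, -0.92 and -0.51, and 0.18 at 0-2 h and 0.36 in brains. At 48 h 3 of 5 were called lower (adjusted p under 0.05 from limma, 1.98% of all probes), and 0 at 24 and 72 h, where 6 and 3 had an unadjusted p under 0.05 (5.02 and 4.93% of all probes, lower). The study's lists chose 6, 3 and 2 of these genes at 24, 48 and 72 h, so the counts are not independent evidence of a direction. pug, which makes formyl tetrahydrofolate, read -1.31 ± 0.12 (SD, n = 3), -1.02 ± 0.18 (SD, n = 3) and -0.70 ± 0.44 (SD, n = 4) at the 3 times. It followed Prat2 closely, with r = 0.91 over 16 arrays and 0.94 within experiments. Cy5 minus Cy3 was 1.19, 0.67 and -0.55 for pug at 0-2 h, in brains and at 72 h. For Prat2 it was 1.14, 0.98 and -0.53, and the part of dye orientation in this likeness was not tested. CG3011, a serine hydroxymethyltransferase that yields glycine, read -1.20 ± 0.64 (SD, n = 4), -0.83 ± 0.12 (SD, n = 4) and -0.43 ± 0.24 (SD, n = 4), the same stepwise order as CG11089. aay, a phosphoserine phosphatase of serine synthesis, read -1.46 ± 0.22 (SD, n = 3), -0.92 ± 0.18 (SD, n = 4) and -0.27 ± 0.32 (SD, n = 4), after 0.66 ± 0.12 (SD, n = 4) at 0-2 h, where it is in the study's list. The list also holds enzymes that use these units up. CG8665, a formyltetrahydrofolate dehydrogenase, read -0.50 ± 0.36 (SD, n = 3) at 0-2 h, before the -0.85 ± 0.11 (SD, n = 3) of 24 h. Of the glycine cleavage system, ppl, the H protein, read -0.92 ± 0.08 (SD, n = 3) at 24 h, and CG3999, the glycine decarboxylase, read -0.81 ± 0.13 (SD, n = 4) at 72 h. Genes of supply and of use were thus both below 0. In brains the means of all 6 genes read were above 0, where 52.1% of all probes had means below 0. Nmdmc, another methylene tetrahydrofolate dehydrogenase, led at 0.63 ± 0.03 (SD, n = 4), and the study's brain list holds it. On single brain arrays, pug and ppl were below 0 on 2 of 4 each, and CG3999 and aay on 1 of 4 each.

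Genes of the supply of ribose phosphate were lower at 24 and 48 h and close to 0 at 72 h. Of 8 symbols 5 were named, CG17333 (6-phosphogluconolactonase, now Pgls), Pgd (6-phosphogluconate dehydrogenase), Tal (transaldolase), CG8036 (transketolase) and Pgi (glucose phosphate isomerase). All 5 had means below 0 at 24, 48 and 72 h, with list medians of -0.93, -0.97 and -0.20, and 4 of 5 were called lower at 48 h (1.98% of all probes) and 0 at 24 h (0.0242%) and 72 h (0.0623%). All 5 are in the study's lists for 24 and 48 h and 0 in that for 72 h. At 72 h their means lay between -0.24 and -0.08, against -0.77, -0.80 and -0.32 for Prat2, ade3 and CG11089, and 0 of 5 reached an unadjusted p under 0.05 (4.93% of all probes, lower). Prat2 and ade3 were chosen partly from the 72 h list, so this contrast was set in part by the choice of genes, and it was not tested. Tal was the lowest at 48 h, at -1.27 ± 0.13 (SD, n = 4), and read -0.22 ± 0.36 (SD, n = 3) at 72 h. At 0-2 h the median was -0.05 and in brains 0.20.

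**Figure D4:**
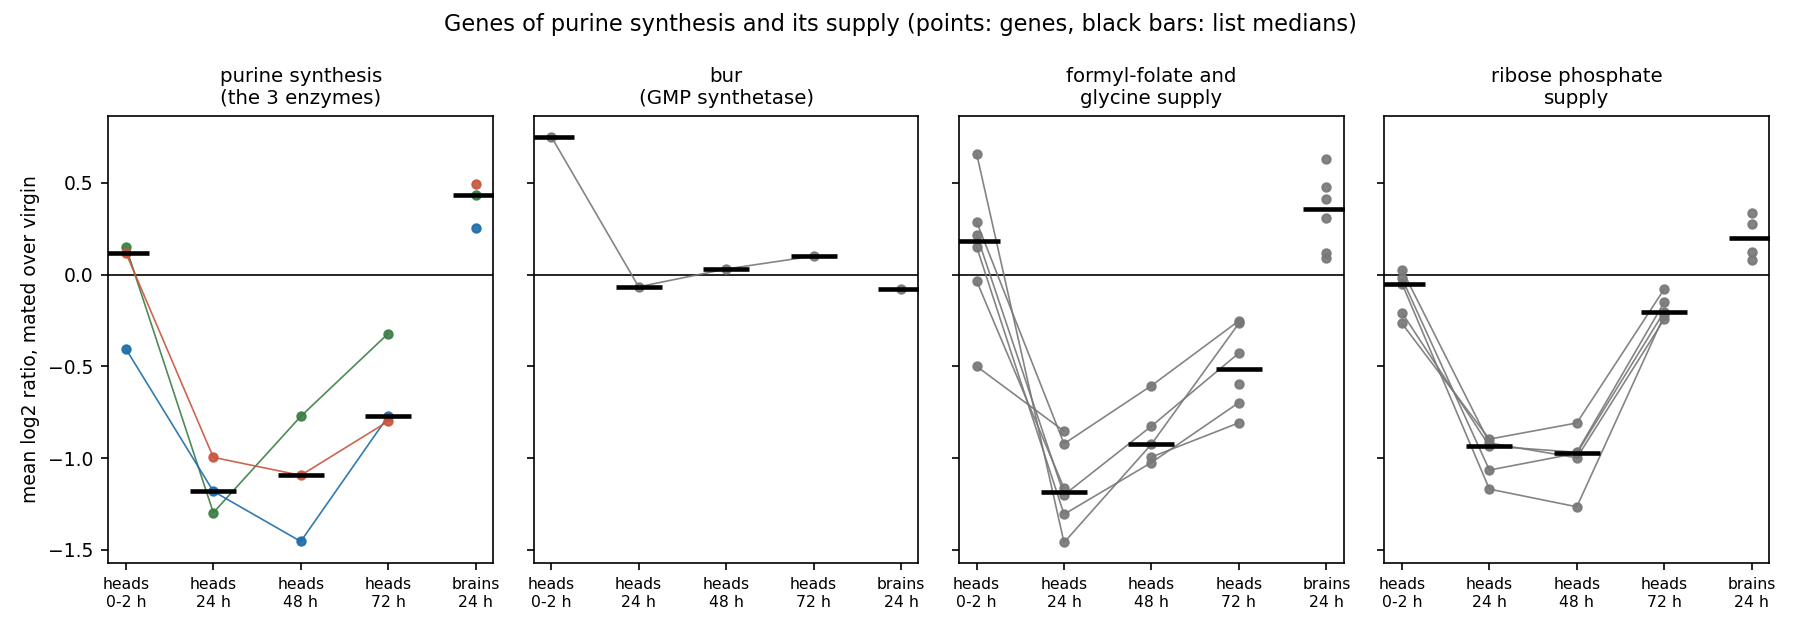
Mean log2 ratio of mated over virgin (vertical axis) by experiment (horizontal axis) for the 3 enzymes (Prat2 blue, ade3 red, CG11089 green), bur, and the named genes of formyl-folate and glycine supply and of ribose phosphate supply; each point is a gene with at least 2 values, lines join the head times, and black bars are list medians. The supply lists are lowest at 24 and 48 h and bur stays near 0 from 24 h on.

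Marker genes of the head's tissues moved as well. Of 16 fat body markers 8 were named, which include Lsp2 and Lsp1beta, storage proteins, and the secreted proteins fit, takeout (to), Obp99a and Obp99b. The remaining named markers, bmm and Lsd-1, are not in the study's lists for 24 or 48 h. At 0-2 h they alone had means below 0, at -0.47 (n = 4) for bmm and -0.12 (n = 3) for Lsd-1. Their means ranged from -4.21 to -0.04 at 24 h (median -1.77, 7 read), from -4.05 to -0.31 at 48 h (median -1.76, 8 read), from -2.50 to 0.16 at 72 h (median -0.96) and from -0.47 to 0.96 at 0-2 h (median 0.34). Called lower were 1, 5 and 2 markers at 24, 48 and 72 h (0.0242, 1.98 and 0.0623% of all probes), all 3 counts resting partly on genes that the study's lists chose. The fat body markers and the purine enzymes thus shared the times at which they were low, and the part of fat body content in the ratios of the enzymes was not tested. Lsp2 had r = 0.77 with Prat2 (17 arrays), 0.78 with ade3 (18 arrays) and 0.77 with CG11089 (18 arrays), and within experiments 0.79, 0.69 and -0.01. Another fat body marker, fit, had r = 0.45, 0.66 and 0.80 with Prat2, ade3 and CG11089 (17, 18 and 18 arrays), and -0.12, 0.15 and 0.28 within experiments. At 0-2 h Cy5 minus Cy3 was 1.87 for Lsp2 and -0.34 for fit, and the part of dye orientation in these coefficients was not tested. Both markers were chosen with earlier results of these data known, and r was not computed for the other fat body markers. In brains the means of the fat body markers lay between -0.90 and 0.51 (median -0.27). Of these, 7 of 8 were below 0, against 52.1% of all probes. The study's brain list holds Obp99b and Lsd-1, so the range rests in part on genes that this list chose. The means of the 3 enzymes were above 0 in brains, and none passed the test. The part of fat body content in the brain ratios was not tested.

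Markers of other cells followed other courses. The 4 eye markers named of 12 had means from 0.74 to 1.65 at 24 h, where the study's list holds all 4, and the pair read later had -0.15 (retinin) and -0.09 (Rh5) at 48 h and 1.03 ± 1.99 (SD, n = 4) and 0.24 ± 0.66 (SD, n = 3) at 72 h. The part of eye content in the ratios of the enzymes was not tested. Neuron markers (5 of 10 named) lay between -0.40 and 0.15 in heads, with 3 read at 0-2 h, 3 at 24 h, 2 at 48 h and 5 at 72 h. In brains all 5 lay between -1.01 and -0.54. Muscle markers (3 of 4 named) lay between -0.29 and 0.26 in heads, with 2 read at each time. In brains all 3 lay between 0.53 and 0.83, and the study's brain list holds all of them and the neuron markers too. That list chose these markers, so their distance from 0 in brains was set by the choice of genes. No enzyme passed the test in brains, where no probe did, and Prat2 was below 0 on 2 of 4 arrays there. The part of muscle or neuron content in the brain ratios of the enzymes was not tested.

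**Figure D5:**
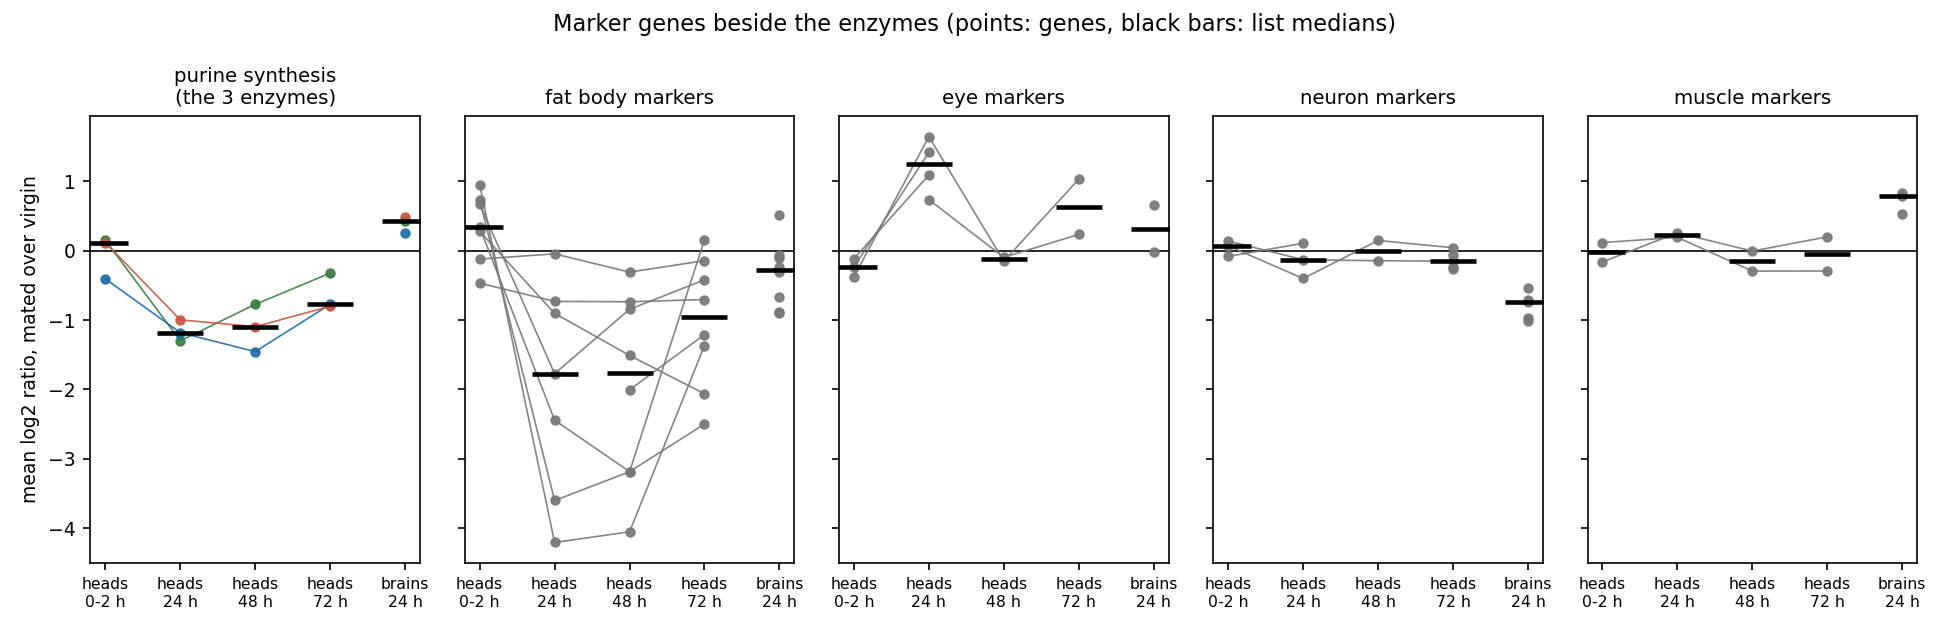
Mean log2 ratio of mated over virgin (vertical axis) by experiment (horizontal axis) for the 3 enzymes and for named markers of fat body, eye, neurons and muscle; each point is a gene with at least 2 values, lines join the head times, and black bars are list medians. Fat body markers are low in heads at 24, 48 and 72 h, eye markers high at 24 h, and neuron and muscle markers depart from 0 in brains.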

How the data were processed

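The authors deposited, per the labels, a table of normalized log2 ratios, 1 column per 2-colour array, of RNA from mated over virgin females, already turned for the dye swap (the labels name limma). Not given in the sources used here are the scanner, how background was handled, how arrays were normalized and why cells are empty. The 32 control rows were left out of 15776, and 0 columns were unused. The table names no genes. A row was named where the antilog of its mean equals a mean ratio in the study's lists of 100 genes (relative tolerance 2e-05, ties settled by p); 496 of 500 entries matched, and 390 genes were named. On plates 2 to 30, which hold the 3 genes, all 46 rows named in both layouts of the print were the same gene.

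A mean ratio other than 0 was tested for every probe with 2 or more values within its experiment with limma 3.58.1 (lmFit, eBayes; R 4.3.3) and Benjamini-Hochberg adjustment over all probes tested. Differences between experiments come from a fit of both. Named besides the 3 genes are all members of the pathway and marker lists with a name, and for each enzyme the 3 named genes of highest r over at least 10 arrays; some lists hold an older and a newer symbol of 1 gene. Genes and lists were chosen with earlier results of these data known. The test was tested on simulated data. Alternatives were centring, scaling, a dye term, values on all 4 arrays or in each orientation, robust eBayes, all 20 arrays in 1 fit, each replicate left out and, for differences, a replicate block. Tables and figures used Python 3.11.15, pandas 2.3.3 and matplotlib 3.10.9.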

Additional observations from a re-analysis of the deposited data

Results flagged for a closer look

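In heads at 24 h ade3 read -0.19 on replicate 2, far from the other 3 arrays at -1.28 to -1.25 by Dixon's criterion for 4 samples (0.829). In brains bur read -0.49 on 1 array, apart from the others by the same criterion. Chance flags about 1 in 20 groups, and 43 groups were examined.

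Some genes lay wholly on opposite sides of 0 in 2 experiments, and these differences were not tested. Each of them is in the study's list for heads at 24 h. The share of all probes on opposite sides of 0 was not counted, so nothing is read from these cases. Brain values lay wholly above those of heads at 24 h for 8.09% of 1446 probes. CG11089 was below 0 on every array with a value in heads at 24 h and above 0 on every array in brains, a difference of 1.73, and so were Nmdmc (1.79) and CG3011 (1.61). Between heads at 0-2 h and 24 h ppl, the H protein of the glycine cleavage system, changed by -1.21 and aay by -2.12, both above 0 on each array with a value at 0-2 h and below 0 on each at 24 h. For ppl only 2 arrays had a value at 0-2 h (0.42 and 0.16).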

How the results depend on the processing

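The ratios of the enzymes at 24, 48 and 72 h kept their direction in 95 of 95 alternatives and moved by less than the spread between replicates. All 32 values there were below 0, so leaving out a replicate could not turn a mean. Robust eBayes, values on all 4 arrays or in each orientation, and all 20 arrays in 1 fit leave a mean unchanged in every experiment. Such counts of kept direction, also those for 0-2 h and brains, are therefore no measure of robustness. The differences between experiments kept their direction in 70 of 72. The change of ade3 from 24 to 48 h turned without replicate 2 (0.085) or 3 (0.055). At 0-2 h and in brains 62 of 64 kept their direction and none passed the test (lowest adjusted p = 0.208 from limma, CG11089 in brains with a dye term). Leaving out 1 replicate turned ade3 at 0-2 h (-0.21 to 0.36) and Prat2 in brains (-0.046 to 0.43), in both cases without replicate 4. Probes called numbered 3, 1, 74 and 5 in heads in the order of time and 0 in brains. With a dye term, which tests fewer probes, they numbered 47, 51, 104, 47 and 6. With values required on all 4 arrays there were 1, 0, 87, 0 and 1. Centring left 0 at 0-2 h, a value in each orientation 1 at 0-2 h, scaling 0 at 24 h and 12 at 72 h, and all 20 arrays in 1 fit gave 83 at 24 h and 2 at 72 h; the cause was not tested. Leaving out 1 replicate gave 0 to 2, 1 to 3, 14 to 91 and 3 to 12 in heads in the order of time and 0 in brains. Of the enzymes, 2 were called at 24 h with a dye term or all 20 arrays in 1 fit, 2 at 72 h with a dye term, and 2 at 48 h with scaling, a dye term or all 20 arrays. These times chose the genes, so nothing is read from these counts either. Genes with 3 values have no result with values on all 4 arrays.

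Replicate numbers are shared across experiments, and deviations of arrays with the same number had r from -0.25 to 0.39. Arrays of unlike number could deviate together as much. Replicate 1 at 24 h had r = 0.52 with replicate 2 at 0-2 h, of the same dye orientation, and -0.48 with replicate 4, of the other. The check therefore cannot show whether the numbers pair the samples. With a replicate block the change from 0-2 to 24 h was -0.94 for Prat2, -1.11 for ade3 and -1.56 for CG11089, and brains minus heads at 24 h 1.61, 1.49 and 1.58; it changed no direction.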
